A study of Caenorhabditis elegans with 2 samples.

Results

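The peaks described here are the distal intergenic binding regions of the homeodomain factor CEH-36 in early Caenorhabditis elegans embryos, 250 of the 1636 nuclear peaks (15.3%, exact binomial 95% interval 13.6% to 17.1%) and of the 1662 peaks in all that the authors kept after their irreproducible discovery rate (IDR) procedure. A nuclear peak was taken when its summit lay outside every protein-coding gene body and over 500 bp from every protein-coding gene start. Left out were summits closer than 500 bp to tRNA genes or than 200 bp to snoRNA genes. Summits whose surrounding 390 bp held the telomere unit TTAGGC at least 3 times were also left out. Of 523 distal intergenic peaks these exclusions removed 273, namely 172 at telomere repeats and 102 at tRNA or snoRNA genes, with 1 counted under both. The remaining 250 are called distal peaks below.

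Chromatin immunoprecipitation with sequencing was done on whole early embryos of strain OP620, which carries unc-119(tm4063) and the transgene wgIs620, with CEH-36 fused at its C terminus to GFP and FLAG. Embryos of mixed sex were taken 2 hours after egg bleaching, the precipitation used an antibody against GFP per the labels' description, although the antibody field names ceh-36, and the chromatin was sonicated. There were 2 biological replicates of 1 group and no second condition, so the comparisons are among peak classes, between summits and flanking sequence, and between replicates. The lists hold no read counts, so depth is unknown, and whole embryos give no information on which cells were bound.

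CEH-36 belongs to the Otx class of homeodomain factors, which read the core sequence TAATCC through a lysine in the recognition helix. It is known for specifying the AWC and ASE chemosensory neurons, and in early embryos it acts with the Pitx factor UNC-30 in the progenitors of several lineages. In C. elegans most regulatory sequence lies close to gene starts, and distal intergenic elements are more often found beside developmental regulators, whose intergenic regions tend to be long.

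The distal windows below carry the core within 50 bp of the summit and are shown because they lie beside regulators of neuronal and embryonic fate or, beside ser-4, hold many copies of the core. Each spans 50 bp to either side of the summit on ce11 (RefSeq sequence of WBcel235) and is printed 5′ to 3′ on the strand that reads the core copy nearest to the summit as TAATCC. Capitals mark each TAATCC or its reverse complement. The gene named is a flanking gene, not always the one with the nearest start. Within 100 bp of the summit beside egl-18, 64.7% of bases are soft-masked as repeat.
egl-27 (chrII:6831776-6831876, minus strand): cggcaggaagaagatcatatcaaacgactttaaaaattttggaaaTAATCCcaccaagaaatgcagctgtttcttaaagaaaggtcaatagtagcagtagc
ser-4 (chrIII:1744890-1744990, minus strand): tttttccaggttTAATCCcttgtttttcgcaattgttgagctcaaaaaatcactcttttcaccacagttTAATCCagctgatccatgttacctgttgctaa
unc-62 (chrV:4496259-4496359, plus strand): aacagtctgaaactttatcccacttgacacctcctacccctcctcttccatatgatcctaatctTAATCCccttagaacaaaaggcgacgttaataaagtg
tab-1 (chrII:6801422-6801522, plus strand): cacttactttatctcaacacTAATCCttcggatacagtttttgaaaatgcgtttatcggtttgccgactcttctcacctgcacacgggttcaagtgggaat
egl-1 (chrV:14433779-14433879, minus strand): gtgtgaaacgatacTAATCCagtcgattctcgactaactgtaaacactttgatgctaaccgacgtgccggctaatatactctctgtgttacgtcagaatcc
cfz-2 (chrV:3450024-3450124, minus strand): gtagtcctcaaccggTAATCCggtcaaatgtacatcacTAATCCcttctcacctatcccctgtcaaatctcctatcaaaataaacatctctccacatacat
cnd-1 (chrIII:5248843-5248943, plus strand): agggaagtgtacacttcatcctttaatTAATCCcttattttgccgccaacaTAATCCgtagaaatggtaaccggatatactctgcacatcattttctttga
zag-1 (chrIV:3847387-3847487, minus strand): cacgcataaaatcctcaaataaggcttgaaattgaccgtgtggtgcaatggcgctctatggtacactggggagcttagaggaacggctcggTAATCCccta
zag-1 (chrIV:3843189-3843289, minus strand): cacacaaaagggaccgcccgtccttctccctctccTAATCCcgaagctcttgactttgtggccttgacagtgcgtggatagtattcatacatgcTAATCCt
lin-39 and ceh-13 (chrIII:7545242-7545342, minus strand): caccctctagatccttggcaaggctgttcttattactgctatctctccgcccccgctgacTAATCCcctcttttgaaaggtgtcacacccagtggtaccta
nsy-7 (chrIV:8092746-8092846, minus strand): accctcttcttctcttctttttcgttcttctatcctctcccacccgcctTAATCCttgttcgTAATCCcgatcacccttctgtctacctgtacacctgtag
ttx-1 (chrV:20073405-20073505, plus strand): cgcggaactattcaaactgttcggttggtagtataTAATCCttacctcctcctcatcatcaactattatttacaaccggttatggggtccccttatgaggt
ngn-1 (chrIV:2630454-2630554, plus strand): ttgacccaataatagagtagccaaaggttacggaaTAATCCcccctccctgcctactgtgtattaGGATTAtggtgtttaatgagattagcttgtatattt
egl-18 (chrIV:1881277-1881377, plus strand): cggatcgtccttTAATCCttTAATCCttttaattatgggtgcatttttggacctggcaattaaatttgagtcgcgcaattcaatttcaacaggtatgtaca

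Among these windows, those beside ser-4, cfz-2, cnd-1, zag-1 (summit 3843239), nsy-7 and egl-18 show 2 copies on the same strand, and the window beside ngn-1 shows 2 copies that face each other. The 7 strongest distal peaks carried no core, and 3 of them are shown for contrast on the plus strand, with no capitals because no core is present. They lie at the microRNA genes mir-51 and mir-52 and at sls-2.1, a gene for the SL2 spliced leader RNA.
mir-51 (chrIV:11026153-11026253, plus strand): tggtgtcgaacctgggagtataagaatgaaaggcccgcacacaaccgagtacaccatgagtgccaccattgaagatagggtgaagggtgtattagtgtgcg
mir-52 (chrIV:14033964-14034064, plus strand): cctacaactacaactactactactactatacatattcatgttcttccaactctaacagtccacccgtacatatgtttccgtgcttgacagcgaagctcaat
sls-2.1 (chrII:5844887-5844987, plus strand): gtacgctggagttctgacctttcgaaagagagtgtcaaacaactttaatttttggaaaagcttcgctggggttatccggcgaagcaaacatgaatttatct

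The core set distal summits apart from their surroundings more than any other hexamer. Searched on both strands, TAATCC lay wholly within 100 bp of the summit in 133 of the 250 distal peaks (53.2%, 46.8% to 59.5%), where 6.6% of all windows of that length in sequence open to the rule held it. An equally wide flank, placed 500 bp to the left of the summit, had it for 13 (5.2%). Of the peaks with the core in only 1 of these windows, 125 had it at the summit and 5 in the flank, a ratio of 25 (10.4 to 78.3, exact two-sided sign test, adjusted p = 4.378e-30 by the Benjamini-Hochberg method over 10 motifs). The longer CTAATCC, which contains the core and is in 1.20% of open windows, was at 67 summits and 3 flanks (ratio 33, 8.78 to 278.2, exact sign test, adjusted p = 7.952e-17). In a ranking of all 2080 hexamers by excess over the flank TAATCC came first, and the next entries CTAATC and AATCCC overlap it. Peaks are not replicates of the embryo cultures, so an interval or p-value over them speaks of these lists only.

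**Figure D1:**
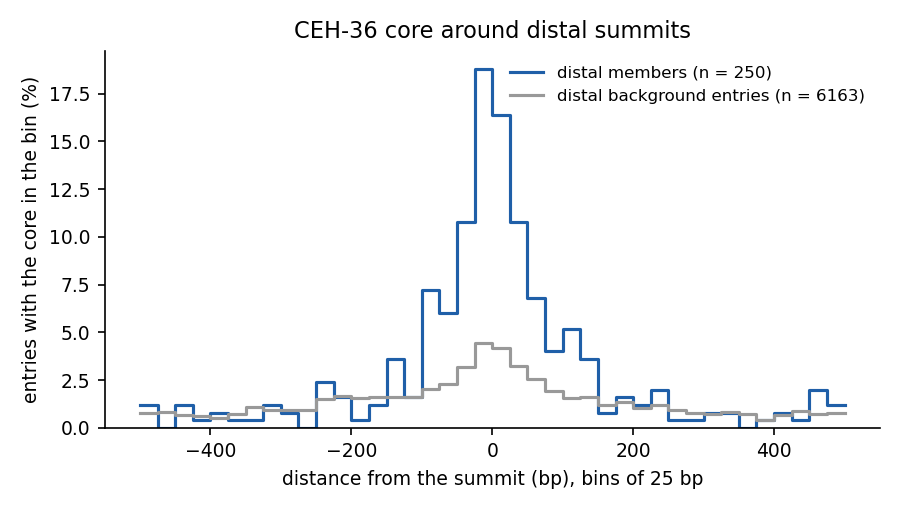
Share of distal peaks (blue, n = 250) and of distal background entries (grey) with TAATCC, named the core in the picture, in each 25-bp bin by distance from the summit (bp). The bins from -25 to 0 and from 0 to 25 bp hold the core in 47 and 41 distal peaks, and bins beyond 200 bp in 6 or fewer.

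Other motifs moved in both directions. GAGAGA, the repeat read by GAGA-type factors in flies, was at 29.2% of summits and 12.4% of flanks (ratio 2.75, 1.70 to 4.59, exact sign test, adjusted p = 2.726e-05) and in 10.1% of open windows. The GC-rich CCGCCC was at 10.4% of summits, 4.4% of flanks and 3.18% of open windows (ratio 2.36, 1.13 to 5.30, exact sign test, adjusted p = 0.04015). TGATAA, the site of GATA factors, was less frequent at summits (7.2% against 23.2%, a ratio of 0.273 with an interval of 0.143 to 0.490, exact sign test, adjusted p = 5.508e-06) and in 17.8% of open windows. The low share of TGATAA was not particular to distal peaks, with 7.58% in gene-start, 7.31% in intron and 16.9% in exon peaks. The hexamers with the largest deficit at distal summits, AAAAAT and AAAATT, are AT-rich like TGATAA. The core TAATTA, read by other homeodomain classes, was at 8.8% of summits and 11.2% of flanks (ratio 0.786, 0.428 to 1.42), and in 10.4% of open windows. GAAGCC, part of the site of the ASE factor CHE-1, was at 4.8%, 4.4% and 4.89%. Neither of these passed the threshold, nor did the E-box CAGCTG, the forkhead site TGTTTAC and the TCF site CTTTGA, which are in 2.97%, 2.74% and 16.3% of open windows (exact sign tests, adjusted p from 0.3209 to 1).

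Where a distal peak carried the core, it often carried more than 1 copy. The 133 peaks split into 72 with 1 copy within 100 bp of the summit, 45 with 2 and 16 with 3 or more, so 45.9% (37.2% to 54.7%) had at least 2. Among the 9641 windows of open sequence with a core, 7.48% had at least 2 (odds ratio 10.5, 7.26 to 15.1, two-sided Fisher exact p = 2.696e-32). Those windows were laid end to end and not centred on a summit, so their cores can lie at an edge. The part of this placement in the odds ratio was not tested. The nearest copy lay a median of 17.5 bp from the summit, within 25 bp in 80 peaks and within 50 bp in 114. Of 82 neighbouring pairs of copies, 58 were on the same strand, 13 faced each other and 11 stood back to back, with a median spacing of 33.5 bp. The most copies, 6, were beside clec-113 in a window of which 79.6% is soft-masked as repeat, followed by 5 beside the serotonin receptor gene ser-4, where 3.48% is masked. Of the 16 peaks with 3 or more copies, 5 had at least 50% of the window masked and 4 had another near-identical copy of the window in the genome.

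The bases beside the core also differed from those at other copies. Directly before the core a C stood in 45.1% of the 133 copies nearest to summits against 17.5% of the 10719 copies in open sequence (odds ratio 3.88, 2.70 to 5.55, two-sided Fisher exact, adjusted p = 7.937e-12 over 32 comparisons). Directly after it a C stood in 38.3% against 16.6% (odds ratio 3.13, interval 2.15 to 4.51, by the same Fisher exact test, adjusted p = 2.899e-08). An A stood there in 15.8% against 33.9% (an odds ratio of 0.365 with an interval of 0.217 to 0.587 by that exact test, adjusted p = 2.936e-05). A G stood directly before the core in 7.52% against 24.5% (Fisher exact, adjusted p = 5.286e-06). Bases further out differed too, with A at position 2 after the core in 15.04% against 39.4% (Fisher exact, adjusted p = 2.556e-08). C stood at position 4 before it in 36.1% against 19.6% (Fisher exact, adjusted p = 7.457e-05). At positions 2 before and 3 after it C did not pass the threshold. The part of the windows' base composition in these differences was not tested. In the 117 distal peaks without TAATCC, none of the 18 sequences that differ from it by 1 base passed the threshold against the flank (exact sign tests, lowest adjusted p = 0.9519). The nearest to it was CAATCC, at 11 summits and 3 flanks (exact sign test, unadjusted p = 0.05737). The leading hexamers of those 117 peaks were instead ACACAC at 40 summits and 6 flanks, CACACA at 43 and 9, and GAGAGA at 49 and 13, given as counts only because they were picked from the ranking.

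Against other classes of peaks under the same exclusions, distal peaks stood between gene-start and intron peaks in core content. The core was at 68 of 264 gene-start peaks (25.8%, odds ratio of distal peaks 3.27, 2.22 to 4.84, two-sided Fisher exact, adjusted p = 1.009e-09 over 16 comparisons) and at 141 of 219 intron peaks (64.4%, odds ratio 0.629, 0.426 to 0.927, adjusted p = 0.034). The difference from intron peaks was lost with windows of 50 bp (odds ratio 0.731, Fisher exact p = 0.09634), with summits over 1000 bp from a start (0.752, p = 0.2028) and in the stronger 50% of the authors' list (0.920, p = 0.855). For the longer CTAATCC the shares were 26.8% in distal and 27.4% in intron peaks (odds ratio 0.970, 0.632 to 1.49). Exon peaks held the core in 31 of 65 (47.7%, odds ratio 1.25, 0.696 to 2.24).

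Distal background entries, the weaker regions of the pooled list that pass the same position rule and overlap no kept peak, carried the core in 20.5% (odds ratio of distal peaks 4.42, 3.39 to 5.76, two-sided Fisher exact p = 9.125e-29). By pooled signal their share was 42.4% in the 250 strongest, 31.2% in the next 250, 35.8% in the next 500, 25% in the next 1000, 17.8% in the next 2000 and 13.5% in the rest. Against the 250 strongest alone the odds ratio was 1.54 (two-sided Fisher exact p = 0.01983).

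Distal sequence held fewer peaks per Mb than gene starts. The rule leaves 29.4 Mb of the genome open to distal peaks, 29.8% of all sequence outside the exclusions, and there were 8.51 distal peaks per Mb (7.49 to 9.63, exact Poisson interval, counting error only). Gene-start windows held 14.2 peaks per Mb (12.55 to 16.04), introns 7.71 (6.72 to 8.80) and exons 2.91 (2.25 to 3.71). For peaks with the core the rate was 4.53 per Mb (3.79 to 5.36) in distal sequence and 3.66 (2.84 to 4.64) at gene starts, and these intervals overlap. Introns had 4.96 (4.18 to 5.85). Of the 798 nuclear peaks outside repeats and small RNA genes 31.3% were distal, against 22.7% of 27154 background entries (odds ratio 1.55, 1.33 to 1.81, two-sided Fisher exact p = 3.238e-08). This excess was not particular to distal sequence. Gene starts had 264 peaks and 5816 background entries, more peaks per entry than distal sequence with 250 and 6163. Introns had 219 and 7681, and exons 65 and 7494.

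**Figure D2:**
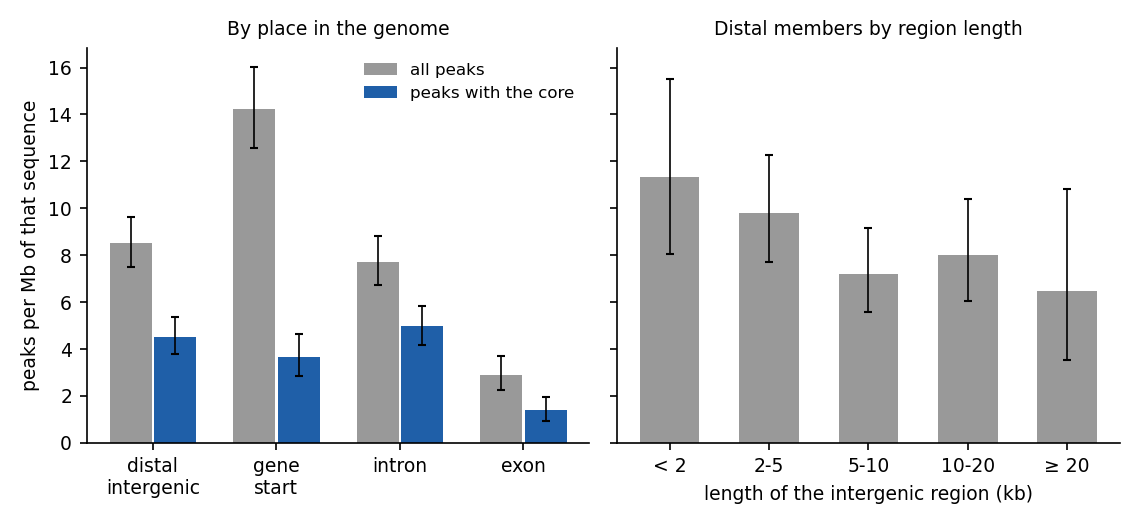
Left, peaks per Mb of their own sequence for distal intergenic, gene-start, intron and exon peaks, all peaks in grey and peaks with the core in blue. Right, distal peaks per Mb of open sequence by length of the intergenic region (kb). Bars are counts over length and lines are exact Poisson 95% intervals. Distal core peaks (4.53 per Mb) and those at gene starts (3.66) have overlapping intervals, and the distal rate falls from 11.3 per Mb in regions under 2 kb to 6.46 in regions of 20 kb or more, also with overlapping intervals.

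Long intergenic regions did not gather more distal peaks than their length gives. The rate was 11.3 per Mb (8.06 to 15.5) in regions under 2 kb, 9.79 (7.71 to 12.3) from 2 to 5 kb, 7.20 (5.56 to 9.18) from 5 to 10 kb, 8.01 (6.05 to 10.4) from 10 to 20 kb and 6.46 (3.53 to 10.8) in longer ones. The median region over the 250 peaks was 5.68 kb (4.81 to 6.99), over all open bases 6.71 kb, and over all 11653 regions with open sequence 1.68 kb. The nearest start of a flanking gene was a median of 1978 bp away (510 to 20995 bp), and 189 peaks (75.6%) lay upstream of it. The matching share of open bases or background entries was not counted, so no preference can be read from this value. A summit between divergent genes is always upstream, and 1 between convergent genes, which hold 13.8% of open bases, is always downstream. Divergent gene pairs flanked 35.2% of distal peaks, where they hold 31.9% of open bases and flank 30.3% of background entries (odds ratio 1.25, 0.947 to 1.64, two-sided Fisher exact p = 0.1069), which did not pass the threshold. The direction was not stable: the odds ratio was 1.29 with starts taken at 250 bp (Fisher exact p = 0.03834), but 0.866 (Fisher exact p = 0.4783) with genes of any type except piRNA genes excluded and 0.856 (Fisher exact p = 0.6707) in the stronger 50% of the authors' list. By chromosome the rate ran from 5.25 per Mb on V and 6.30 on IV to 13.0 on I and 13.2 on III, with 7.50 on X.

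At the edge of the rule, the members just inside were summits 510 bp from the start of lin-59, 511 bp from ftt-2 and 512 bp from sms-3, with signals of 104.9, 344.2 and 202.5. Just outside were 3 at 472, 479 and 480 bp with signals of 105.2, 95.2 and 90.7. Of the distal peaks 224 had no telomere unit in the 390 bp around the summit, 25 had 1 and 1 had 2, and 2 distal peaks with exactly 3 were left out. The rule removes telomere repeats only. Of the 250 windows, 31 had at least 50% of their bases soft-masked as repeat, and 14 had another copy in the genome at 90% identity or more over at least 160 bp, up to 306 copies for the window between pef-1 and fbxa-55. Of the 215 peaks with neither, 113 (52.6%, 45.7% to 59.4%) carried the core.

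The authors' signal value, which ranks peaks within a list, ran from 87.3 to 817.5 over distal peaks with a median of 103.3. Above the median of all nuclear peaks (124.1) were 65 of 250 (26%), against 41.3% of gene-start peaks (odds ratio 0.5003, 0.337 to 0.738, two-sided Fisher exact, adjusted p = 0.00123 over 9 comparisons) and 28.8% of intron peaks (odds ratio 0.870, 0.568 to 1.34). The core share showed no steady trend over groups of 50, at 58%, 56%, 44%, 54% and 54% from the strongest to the weakest distal peaks. The first of these groups is mixed, with a low share at its top. Among the 15 strongest, 2 carried the core (13.3%, 1.66% to 40.5%), beside the DEG/ENaC channel gene del-4 and beside kal-1, which encodes the secreted anosmin.

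RNA genes other than tRNA and snoRNA genes, which the rule does not use, lay at many of the strongest distal peaks. A snRNA, microRNA, lincRNA or other ncRNA gene was annotated within 200 bp of 55 distal summits (22%, 17.02% to 27.65%), where 5.81% of open bases and 12.6% of background entries have one (odds ratio against background 1.96, 1.41 to 2.68, two-sided Fisher exact p = 4.815e-05). Peaks with the core had such a gene less often than the others (17 of 133, 12.8%, against 38 of 117, 32.5%, odds ratio 0.306, 0.151 to 0.601, two-sided Fisher exact, adjusted p = 0.00123). Pseudogenes were within 200 bp of 2.8% of distal summits and 8.32% of background entries (odds ratio 0.317, 0.126 to 0.669, two-sided Fisher exact p = 0.0008067). These RNA genes were looked up after the strongest peaks had been seen.

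The strongest distal peak of all lay between alh-3 and hrg-5 at mir-51 (chrIV:11025853-11026397 on ce11, signal 817.5) and ranked 24 in the list of replicate 1 and 24 in that of replicate 2. A peak at mir-52, between irld-55 and Y37A1B.7 (summit 14034014, signal 505.2), ranked 54 and 37. Both genes encode microRNAs of the mir-51 family, which is needed for embryonic development in C. elegans. Genes for the SL2 spliced leader, which is added to downstream mRNAs of operons, had peaks at sls-2.1 between nep-25 and ZK1248.17 (signal 459.5, ranks 43 and 60), at sls-2.4 between egg-5 and R12E2.11 (369.3) and at sls-2.2 between C17C3.24 and ins-13 (244.1, ranks 194 and 310). A peak between alh-1 and cox-6A (214) lay at F54D8.7, annotated as a snRNA gene. Other ncRNA genes were also annotated within 200 bp of the peaks at mir-51, mir-52, sls-2.4 and sls-2.2. None of these 6 peaks carried the core, and each was among the 1662 strongest entries of both replicates. Short RNA genes of this kind and their near copies were not excluded by the rule, and their part in the signal was not tested.

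The other members of the 15 strongest were of mixed kind. Peaks with ncRNA genes close by lay between cysl-2 and dhs-8 (350.8), at ftt-2, a 14-3-3 gene, and F52D10.4 (344.2), between snt-1 and egl-27 (268.7) and between T22B2.5 and idpp-9 (241.7). No RNA gene was annotated within 200 bp of the peaks between K12H4.6 and K12H4.5 (528.9), aagr-1 and D2096.7 (323.8), gcc-2 and the CBP/p300 gene cbp-1 (264), and pef-1 and fbxa-55 (247.4). The peak of del-4 and T28B8.1 had a signal of 340.9 and 2 cores, and that of kal-1 and C37A5.6 had 313.1 and 2 cores.

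**Figure D3:**
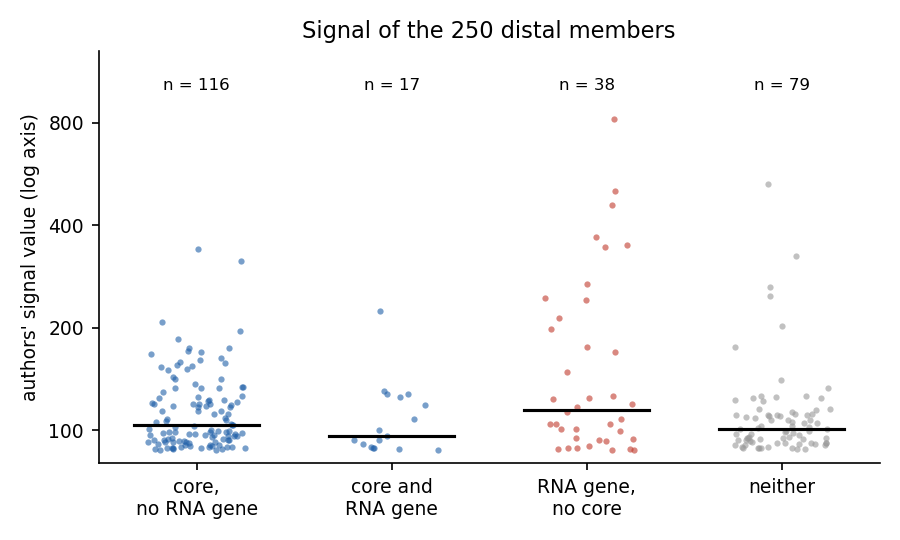
The authors' signal value (log axis) of each of the 250 distal peaks, by whether TAATCC lay within 100 bp of the summit (the core) and whether an RNA gene lay within 200 bp. Points are peaks, spread sideways for legibility, and lines are medians. The medians are 103.6 (core only), 96.4 (both), 114.9 (RNA gene only) and 100.8 (neither), and 9 of the 15 highest values have an RNA gene and no core.

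The 2 replicates gave the distal peaks less evenly than those at gene starts. All but 1 of the 250 had an entry in both replicate lists. Among the 1662 strongest entries of a replicate, 175 were found in replicate 1, 183 in replicate 2 and 124 in both (49.6%, 43.24% to 55.97%). For gene-start peaks the share in both was 62.1% (odds ratio of distal peaks 0.601, 0.416 to 0.866, two-sided Fisher exact, adjusted p = 0.009019) and for intron peaks 57.99% (0.713, 0.487 to 1.04, adjusted p = 0.07802). The share followed the signal, from 100% in the strongest 50 distal peaks through 82%, 50% and 12% to 4% in the weakest 50. Within the 5000 strongest entries of both replicates it was 96.4%, and the difference from gene-start peaks was no longer past the threshold (odds ratio 0.623, Fisher exact p = 0.4378). In the stronger 50% of the authors' list it was 98.3%, with the odds ratio turned to 1.67 (p = 1). Peaks with and without the core did not differ beyond the threshold (45.9% and 53.8%, odds ratio 0.727, 0.428 to 1.23, Fisher exact, adjusted p = 0.4571).

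Some distal peaks ranked far apart in the replicates. Between kin-20, a casein kinase gene, and jud-4 a peak ranked 11716 in replicate 1 and 1091 in replicate 2, that between cbl-1 and lin-41 ranked 11259 and 805, while that between T23F11.4 and T23F11.11 ranked 5545 and 682. In the other direction the peak between scl-21 and Y43F8B.3 ranked 758 and 6360, that between nhr-61 and cdh-7 ranked 1049 and 5203, and that between col-105 and nhr-41 ranked 866 and 4014. All 6 had signals between 88.5 and 93.9, near the low end of the list. The peak beside lin-41, which encodes a heterochronic RNA-binding protein, lies at the microRNA gene mir-79 and the ncRNA gene C12C8.8.

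Distal peaks shared intergenic regions more often than length gives. They fell in 223 regions, of which 204 held 1, 15 held 2 and 4 held 3 or more. Thus 19 regions held 2 or more, where an even rate over all open bases would give 7.91, and 4 held 3 or more, where it would give 0.339. In 2 of the 19 regions, those of irld-55 with Y37A1B.7 and of ftt-2 with F52D10.4, the pair of summits lay 199 bp apart in overlapping intervals that met the same entry in each replicate. With such pairs merged, 17 regions held 2 or more, where an even rate would give 7.79. No test was made of these counts. The region between the synaptotagmin gene snt-1 and egl-27, which encodes an MTA-like chromatin protein of embryonic patterning, held 7 peaks in 18.6 kb, where its length gives 0.154. Their signals were 167.4, 268.7, 126.2, 119.4, 113.2, 223.7 and 169.3 in order along the region, from 8989 bp to 1134 bp upstream of egl-27. All 7 lay in the part nearer to egl-27. The peaks of 167.4 and 223.7 carried the core and the others did not. Annotated ncRNA genes lay within 200 bp of 5 of the 7, all but those of 167.4 and 113.2, and their part in the signal was not tested. In replicate 1 the 3 strongest had ranks of 159, 241 and 426, and in replicate 2 of 260, 340 and 664.

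The other regions with 3 peaks were shorter. Upstream of zag-1, a ZEB-type zinc finger and homeodomain factor of neurons, and downstream of F28F9.2, peaks of 161, 117.1 and 121.9 stood 8406, 12604 and 13945 bp from the zag-1 start, the first 2 with the core. All lay nearer to the start of F28F9.2, at 7717, 3519 and 2178 bp. Between din-1, which encodes a cofactor of the nuclear receptor DAF-12, and ghi-1 the signals were 87.8, 106.9 and 97.4, all without the core. Between F54F12.1 and Y39E4B.6 they were 100.5, 96.8 and 93.1, of which the middle peak had the core, and that region held 2 further summits of the authors' list that are not distal peaks under the rule.

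**Figure D4:**
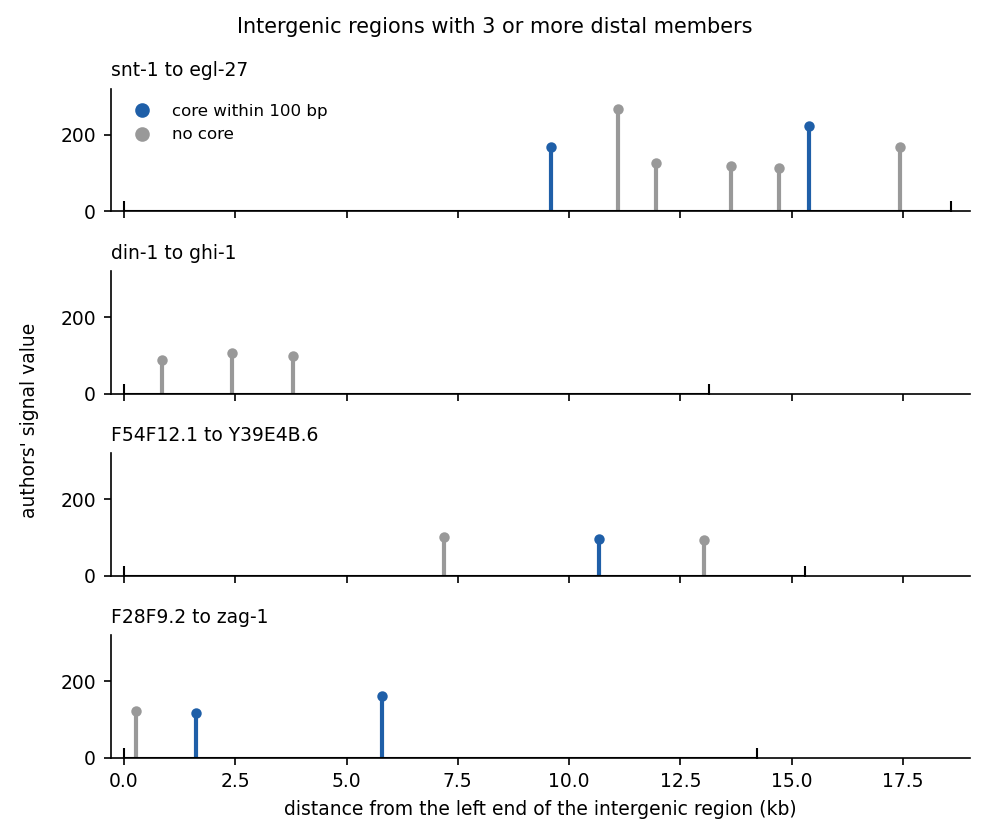
Distal peaks in the 4 intergenic regions with 3 or more, drawn by distance (kb) from the left end of the region, with the authors' signal value as height. Blue peaks carry TAATCC within 100 bp and grey ones do not, and ticks mark the ends of each region. The 7 peaks beside egl-27 all lie in the right part of an 18.6-kb region.

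Both flanking genes of each peak were set against lists of gene families, with the count that an even rate over open sequence would give for the same regions. These counts have no test, because the lists were chosen with results of these data known. Of 15682 protein-coding genes beside open sequence 437 (2.79%) flanked a region with a distal peak.

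Regions flanked by homeobox genes held 16 distal peaks where their 0.653 Mb gives 5.56 (ratio 2.88, 1.65 to 4.68 from the Poisson interval of the count). Background entries in the same regions numbered 181, which at the overall ratio of peaks to entries would give 7.34. Without peaks near RNA genes there were 13 against 4.33. Of the 16 peaks 13 carried the core, against 2.96 core peaks given by length and 5.91 by the background entries with a core, and 12 of 92 homeobox genes (13.0%) flanked one. The ratio was 2.98 when regions were compared within their own length class and lay between 2.48 and 3.81 over the 15 alternatives. With genes of any type except piRNA genes excluded it was 3.56, from fewer peaks and with a wider interval (1.54 to 7.02).

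The homeobox genes covered several classes. The strongest peak was beside unc-62, the Meis-type cofactor gene (1152 bp upstream, signal 195.8, ranks 343 and 421, core present), with another of 91.02 without the core at 2107 bp. The left neighbour is exc-15. Between F31E8.4 and tab-1, a homeobox gene of neuronal fate, a peak of 185.3 with the core lay 1852 bp upstream of tab-1 and ranked 1286 and 250. The start of F31E8.4 was nearer to it, at 1318 bp. The Hox genes lin-39 and ceh-13, which diverge from each other, shared a core peak of 130.7 near the middle of their 19.03-kb region, 8660 bp from lin-39 and 10368 bp from ceh-13, at the microRNA gene mir-231. It ranked 2255 in replicate 1 and 488 in replicate 2. The Otx-class gene ttx-1, a regulator of AFD neurons and close relative of ceh-36, had 2 core peaks towards fre-1, of 102 and 98.5 at 9279 and 4680 bp upstream. Their ranks were 4327 and 864, and 834 and 2647.

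Further core peaks lay beside ceh-58 and ztf-27 (126), beside nsy-7 and Y42H9AR.2 (119.7, 6144 bp upstream of nsy-7, which acts in the asymmetry of the AWC pair), beside ceh-45 and znf-236 (113.9, 3 cores), beside ceh-27 and zip-10 (93.5) and beside zfh-2 and T06A4.1 (99.9 and 87.9). Those beside ceh-45 and ceh-27 lay downstream of the starts of these 2 genes, at 3448 and 4293 bp. The peak beside ceh-32, a Six-type gene, and tre-3 (94.7) had no core. Of the 16 peaks, 5 had signals above the nuclear median of 124.1, those beside unc-62, tab-1, zag-1, lin-39 with ceh-13, and ceh-58.

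**Figure D5:**
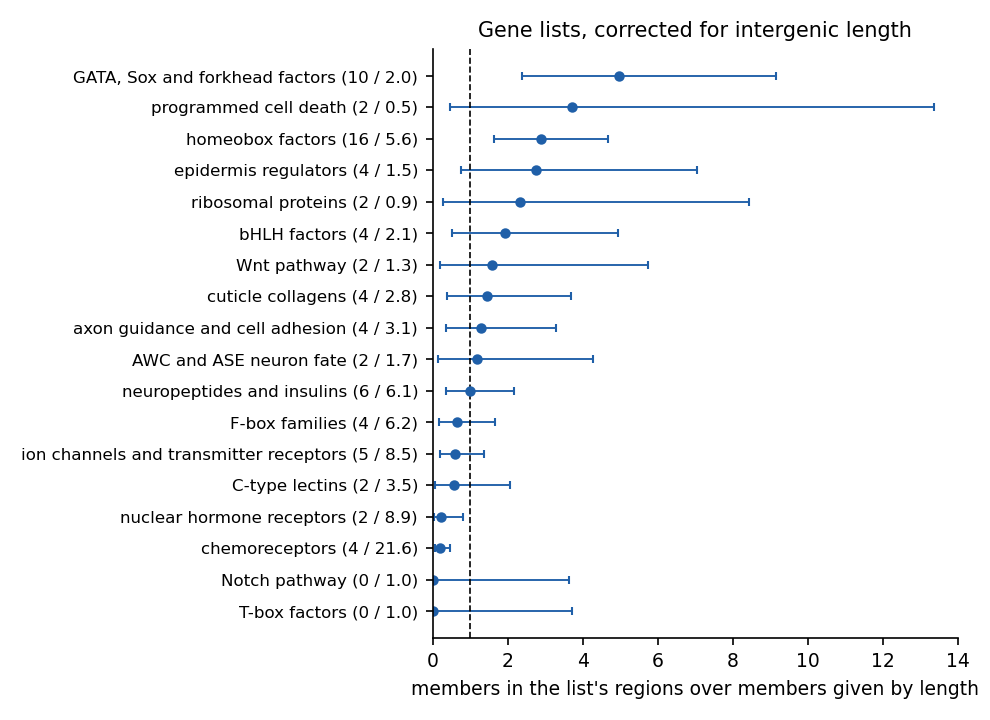
Distal peaks in intergenic regions flanked by each of 18 gene lists, divided by the count that the length of those regions gives (points), with the exact Poisson 95% interval of the count (lines). Names carry the count and the count given by length, and the dashed line marks a ratio of 1. Homeobox regions stand at 2.88, GATA, Sox and forkhead regions at 4.98 with 7 of 10 peaks from 1 region, and chemoreceptor regions at 0.185.

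Other factor lists held fewer peaks. For bHLH genes there were 4 peaks against 2.07 given by length, each with the core. They lay beside cnd-1, a NeuroD gene (with sumv-1, 162.9, 4254 bp upstream), ngn-1, a neurogenin gene (with mdf-2, 132.8, 2233 bp upstream), hlh-2, the E-protein gene (with col-61, 121.5) and lin-22, a Hairy-type gene (with vrp-1, 88.7). GATA, Sox and forkhead genes had 10 against 2.01, of which 7 are the peaks beside egl-27, listed there for its GATA-type zinc finger. Without that region there were 3 against 1.80, beside unc-130, a forkhead gene (with cut-1, 150.3), and egl-18, a GATA gene of seam cells (with egl-4, 132.8 and 88.7). T-box genes had 0 peaks against 0.995 and Notch pathway genes 0 against 1.02. Together the homeobox, bHLH, T-box and GATA, Sox and forkhead lists flanked 30 distal peaks (12%) in 4.25% of open sequence. Length gives 10.6, and 7 of the 30 came from the egl-27 region alone. Background entries were not counted for the lists together. Singly they give 2.47 for bHLH, 1.055 for T-box and 3.29 for GATA, Sox and forkhead genes.

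Signalling and differentiation lists were close to what length gives or had counts too small to place. Wnt pathway genes had 2 peaks against 1.26, both with the core, beside the Frizzled gene cfz-2 and slc-28.2 (171) and beside the Wnt secretion gene mig-14 and R06B9.5 (97.1). Programmed cell death genes had 2 against 0.540, both with the core, beside egl-1, the BH3 activator of cell death, and F23B12.4 (174, 1470 bp upstream, ranks 625 and 438) and beside the engulfment receptor gene ced-1 and dnj-27 (99.7). Axon guidance and adhesion genes had 4 against 3.13, all with the core. Of these, 2 lay in the region of kal-1 and C37A5.6 (313.1 and 103.5). Another lay beside the netrin gene unc-6 and F14B8.4 (119.7), and the last beside the plexin gene plx-1 and faah-3 (93.6). The unc-6 peak was 7599 bp downstream of the unc-6 start and nearer to that of F14B8.4, at 2675 bp. Epidermis regulators had 4 against 1.46, the 2 peaks of egl-18 and those of let-413 with F26D11.1 (94.4) and lin-41 with cbl-1 (93.9). Neuropeptide and insulin genes had 6 against 6.05. The strongest lay beside ins-13 and C17C3.24 (244.1), ins-37 and F08G2.5 (175.7), nlp-46 and T28H10.2 (124.2), and nlp-3 and mob-2 (118.1). Ion channel and transmitter receptor genes had 5 against 8.50, led by del-4 with T28B8.1 (340.9) and ser-4 with Y46E12A.3 (207.4). The window beside nlp-46 has 47 other copies in the genome. By background entries the axon guidance and Wnt counts were below what those entries give, at 5.44 and 2.80. Cuticle collagens had 4 against 2.77 and ribosomal protein genes 2 against 0.857.

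The list of AWC and ASE neuron genes, which work where ceh-36 is required later, had 2 distal peaks against 1.69 given by length, at nsy-7 and at the calcium channel subunit gene unc-36 with snb-5 (87.3, the lowest signal of all distal peaks). No distal peak lay in the regions flanking ceh-36, unc-30 or unc-119, where length gives 0.101, 0.0887 and 0.0198, and where peaks lay in the genes themselves, at ceh-36 (295.1 and 108.5), unc-30 (150.4) and unc-119 (102.5). The transgene carries ceh-36, so the native and transgene copies cannot be told apart.

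Chemoreceptor and nuclear hormone receptor genes had fewer distal peaks than their length or background entries give. Chemoreceptor genes, most of them used in later sensory neurons, had 4 peaks beside 1199 genes (0.334% of genes) where length gives 21.6 and background entries 12.5. Nuclear hormone receptor genes had 2 against 8.87 by length and 8.07 by background entries, the weak peaks of nhr-61 and nhr-41. F-box genes had 4 against 6.15 by length and 4.67 by background entries, and C-type lectin genes 2 against 3.52 and 2.88, both within the counting error. Most chemoreceptor and nuclear hormone receptor genes lie in clusters on the chromosome arms, and the part of that position in their counts was not tested. Distal peaks numbered 10.5 per Mb (8.24 to 13.1) in the central of 3 equal parts of the autosomes. In the outer parts they numbered 8.03 (6.69 to 9.56), and these intervals overlap. Per background entry the middle held more (odds ratio 1.83, 1.35 to 2.47, two-sided Fisher exact p = 8.562e-05). Background entries themselves numbered 169.3 per Mb in the middle and 237.4 in the outer parts. The core was at 32 of the 75 peaks in the middle and 77 of the 126 in the outer parts.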

How the data were processed

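Chromatin immunoprecipitation with sequencing was measured in 2 biological replicates of 1 group. The deposited ce11 lists are 1 list per replicate and 1 pooled list of 30000 entries each, which the authors made against a control as input for the irreproducible discovery rate procedure, and the thresholded optimal list made from them, per the deposited file descriptions. The sources used here give no aligner and no peak caller. Each entry has a signal value of the authors' caller, used only within its list, and a deposited −log10 q-value, which was not tested. Lists on ce10 were not used here. The optimal list was thresholded on the same 2 replicates, so their overlap is no independent check.

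Genes came from Ensembl 115 and sequence from RefSeq for WBcel235. Open sequence is every base where the rule could place a summit, and counts given by length use the overall rate of 8.51 peaks per Mb over it. Motifs were searched on both strands within 100 bp of the summit. Sign and Fisher tests were exact and two-sided, with Benjamini-Hochberg adjustment within each family and a threshold of 0.05. Background entries are pooled entries that overlap no optimal peak by 1 bp. Peaks are not replicates, so p-values describe these lists, and intervals cover counting error only. Copies of a window were alignments by blastn 2.17.0 of at least 90% identity over 160 bp with an expectation of at most 1e-10. Python 3.11.15, numpy 2.4.6, pandas 2.3.3, scipy 1.17.1 and matplotlib 3.10.9 were used, and the counting was tested on simulated data.

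The members and the 18 gene lists were chosen with earlier results of these data known, and 3 list entries matched no gene (ceh-44, ceh-85 and lsy-15). Genes are named when they flank the 15 strongest distal peaks, regions with 3 or more, or peaks beside homeobox, bHLH, T-box, Wnt, Notch or AWC and ASE genes, with up to 4 strongest for other lists, the 3 largest rank differences in each direction, and ceh-36, unc-30 and unc-119. Genes at the edge of the rule, at window copies and beside the peak with the most cores are named besides. The RNA genes, core variants, core arrangement and neighbouring bases, hexamers of peaks without the core, tests among distal peaks, window copies, counts by background entries and chromosome arms were added after seeing the data. Alternatives changed the distances, the gene annotation, the telomere limit, the window and flank, the list used, the replicate used and the overlap.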

Additional observations from a re-analysis of the deposited data

How the results depend on the processing

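Of 169 alternative values, 153 were called unmoved. Tests had to keep their direction and side of the threshold, other values to stay in the main interval, and counts to stay within a broad limit. Under that limit the count of distal peaks was called unmoved at 305 (250 bp from starts) and 187 (1000 bp from starts). The same held for 172, with genes of any type except piRNA genes excluded. The core at summits against flanks kept a ratio of 16.9 to 36 in all 17 alternatives, and the odds ratios stayed at 1.54 to 5.52 against background entries and 2.46 to 7.10 against gene-start peaks. In the stronger 50% of the authors' list there were 59 distal peaks (2.01 per Mb), of which 98.3% were among the strongest of both replicates, with an odds ratio against gene-start peaks of 1.67 (p = 1) and, for the core against intron peaks, of 0.920 (p = 0.855). Fewer peaks enter that list. The rate was 7.46 per Mb with genes of any type except piRNA genes excluded and 7.05 without summits near RNA genes, an alternative chosen after seeing the data. The core odds ratio against intron peaks was 0.752 (Fisher exact p = 0.2028) at 1000 bp from starts and 0.731 (p = 0.09634) with 50-bp windows. With the 5000 strongest entries the share in both replicates was 96.4% and the odds ratio against gene-start peaks 0.623 (Fisher exact p = 0.4378). Without the snt-1 to egl-27 region, also chosen after seeing the data, the odds ratio against intron peaks in both replicates was 0.673 (Fisher exact p = 0.04004). At 250 bp from starts the odds ratio for divergent pairs was 1.29 (Fisher exact p = 0.03834); it turned to 0.866 with genes of any type except piRNA genes excluded and to 0.856 in the stronger 50%, where the odds ratio against intron peaks in both replicates also turned, to 2.92 (Fisher exact p = 0.6191). The cause of these changes was not tested. With replicate 1 or 2 left out there were 253 and 240 distal peaks, and the share in both replicates is undefined. These come from the 1662 strongest entries of the replicate kept, a number fixed beforehand, and are not all the same peaks. Of the 250 distal peaks, 183 were found in those entries of replicate 2 and 175 in those of replicate 1. No paired analysis was possible because the series has 1 group. Depth is unknown, so no limit of detection can be given.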
